A study of Homo sapiens with 6 samples.

Results

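MET, the receptor for hepatocyte growth factor (HGF), was measured with the macrophage receptor tyrosine kinases CSF1R, MERTK and AXL and the receptor-type tyrosine phosphatases PTPRJ, PTPRC, PTPRE and PTPRA, 8 genes out of 17042 in a table of counts per gene. Polyadenylated RNA was sequenced from THP-1 cells, which derive from a human monocytic leukaemia. In 3 knockdown libraries the macrophages had received small interfering RNA (siRNA) against RP11-184M15.1, a long noncoding RNA, by lipid transfection ahead of interleukin-4 (IL-4). The 3 control libraries carry the genotype label WT, and the labels do not say what their cells received in place of that siRNA. Cells of all 6 libraries were first turned into macrophages with PMA, a phorbol ester, at 100 ng/mL over 24 hours, and then kept with IL-4 at 20 ng/mL over another 24 hours. The genes were chosen by family, with their fold changes in these same libraries already known: MET and PTPRJ were selected on how far they differed between knockdown and control. Their changes are therefore given as a description with no p-value, and whether they pass a threshold supports nothing.

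Receptor tyrosine kinases are membrane proteins that add phosphate to tyrosines on themselves and on adaptor proteins once a ligand brings them together, and receptor-type tyrosine phosphatases take such phosphates off. CSF1R binds CSF1 and IL-34 and keeps macrophages alive, while MERTK and AXL bind GAS6, MERTK also PROS1, and drive the uptake of dying cells. PTPRC (CD45) and PTPRJ (CD148) act on the Src family kinases of leukocytes, and PTPRJ can also remove phosphate from MET.

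Library totals ran from 12029360 to 14181343 counts in knockdown libraries and from 10450043 to 12113848 in controls, and 3 counts were worth 0.210 to 0.289 CPM, the unit of level used here, in which counts are scaled to library size with TMM factors. No row was named RP11-184M15.1, so the level of the targeted RNA is not analysed here. Nothing in the labels says that replicates were separate cultures, so p-values rest on library-to-library spread that could be technical only. All 10 macrophage markers were detected, with summed levels of 3093 to 3158 CPM in knockdown and 3107 to 3245 CPM in control libraries. Of 12 epithelial markers 4 were in the table, summing to 2.71 to 3.08 CPM in knockdown and 1.64 to 2.46 CPM in control libraries, and neither of the 2 tested passed. Of 8 lymphocyte markers 3 were in the table (4.62 to 6.17 CPM summed in knockdown, 5.38 to 5.77 CPM in control libraries). Of 10 fibroblast and endothelial markers 7 were (664 to 708 CPM in knockdown, 688 to 740 CPM in control libraries), most of it PECAM1, which monocytes also carry. Undifferentiated myeloid progenitor markers, 5 of 7 in the table, summed to 75.3 to 82.2 CPM in knockdown and 83.0 to 91.5 CPM in control libraries. The part of any marker list in the results below was not tested.

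The 8 genes lie on 8 chromosomes, all coordinates being GENCODE 29 on GRCh38. MET (ENSG00000105976.14) is at chromosome 7, 116672390 to 116798386, plus strand, with 21 exons in its longest protein-coding transcript. PTPRJ (ENSG00000149177.12) is at chromosome 11, 47980558 to 48170841, plus strand, with 25 exons. CSF1R (ENSG00000182578.13) is on the minus strand of chromosome 5, 150053291 to 150113372. The others are on the plus strand: MERTK (ENSG00000153208.16) at chromosome 2, 111898479 to 112029561, AXL (ENSG00000167601.11) at chromosome 19, 41219203 to 41261766, PTPRC (ENSG00000081237.19) at chromosome 1, 198638457 to 198757476, PTPRE (ENSG00000132334.16) at chromosome 10, 127907061 to 128085855, and PTPRA (ENSG00000132670.20) at chromosome 20, 2864184 to 3039076. Among annotated genes that overlap them, VPS16, which shares the strand of PTPRA, was the 1 with a row in the table, at 14.6 CPM in knockdown and 14.4 CPM in control libraries. PTPRJ-AS1 overlaps PTPRJ on the opposite strand, as the antisense genes AC011510.1 and AL157402.2 overlap AXL and PTPRC. No label states whether counting used strand, and overlap of exons was not examined. Whether reads of these antisense genes enter the counts of PTPRJ, AXL or PTPRC was not tested. Nor was it tested whether reads of VPS16 enter the counts of PTPRA.

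The start regions of MET, MERTK and PTPRC are shown because each of these genes had a single start entry in the RefSeq table, so that the window is not a choice among several. Each runs from 250 bases before to 50 bases after the RefSeq start on GRCh38.p14, 5′ to 3′ on the gene's strand, with matches to the GC box GGGCGG, on either strand, in capitals.
MET (chr7:116671946-116672245, plus strand): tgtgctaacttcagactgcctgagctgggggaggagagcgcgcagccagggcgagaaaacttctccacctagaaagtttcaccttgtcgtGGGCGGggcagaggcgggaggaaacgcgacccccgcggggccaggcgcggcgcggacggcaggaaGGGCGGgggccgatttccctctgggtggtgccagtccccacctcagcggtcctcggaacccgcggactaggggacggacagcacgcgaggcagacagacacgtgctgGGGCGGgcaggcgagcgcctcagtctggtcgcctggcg
MERTK (chr2:111898357-111898656, plus strand): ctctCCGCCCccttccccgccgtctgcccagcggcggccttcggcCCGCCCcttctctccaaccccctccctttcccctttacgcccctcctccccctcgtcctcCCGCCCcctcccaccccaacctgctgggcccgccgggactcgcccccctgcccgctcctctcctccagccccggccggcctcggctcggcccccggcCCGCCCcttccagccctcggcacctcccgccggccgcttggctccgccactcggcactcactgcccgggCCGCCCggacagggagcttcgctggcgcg
PTPRC (chr1:198638790-198639089, plus strand): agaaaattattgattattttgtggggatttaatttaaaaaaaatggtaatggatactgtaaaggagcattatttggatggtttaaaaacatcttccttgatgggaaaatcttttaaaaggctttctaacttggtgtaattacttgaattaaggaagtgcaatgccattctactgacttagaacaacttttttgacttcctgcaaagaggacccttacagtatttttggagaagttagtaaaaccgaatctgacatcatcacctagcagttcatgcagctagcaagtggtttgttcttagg

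The window of MET held 3 GC boxes and 30 CpG dinucleotides at 69.3% G or C, that of MERTK 5 GC boxes and 32 CpG at 78.3%, and that of PTPRC no GC box and 1 CpG at 33.7%. In the first of several entries, PTPRE held 3 GC boxes, AXL 2, CSF1R 1 and PTPRA 1, so of these windows, for the 7 genes with an entry, only that of PTPRC held none. That depended on the entry taken: every later entry of CSF1R, AXL, PTPRE and PTPRA also held no GC box. Over 27305 such windows the median was 58.3% G or C with 14 CpG, and 44.6% held a GC box. The MET window also held 1 match each to the E box CACGTG (7.43% of all windows) and to the core of PU.1 sites, GAGGAA (27.6%), and these were not seen in the windows of MERTK and PTPRC. No match to the AP-1 site TGACTCA (4.92%) or the STAT site TTCNNNGAA (7.88%) was in any of the 3 windows, searched on both strands. These are matches of letters and say nothing about binding.

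Among the receptor kinases, MET had 114, 132 and 114 counts in knockdown libraries, against 44, 55 and 42 in controls. Scaled, these were 9.23, 9.26 and 9.36 CPM in knockdown and 4.16, 4.61 and 4.04 CPM in control libraries, and every knockdown library lay above every control. The log2 fold change was 1.12 ± 0.13 (SE), or 2.17-fold, and 0.366% of the 13405 genes tested had a larger absolute change. MET rests on the fewest reads of the 8 genes, 360 counts over the knockdown and 141 over the control libraries, and has the largest SE of them. In bulk RNA a change in the number of expressing cells and a change in RNA per cell cannot be told apart.

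**Figure D1:**
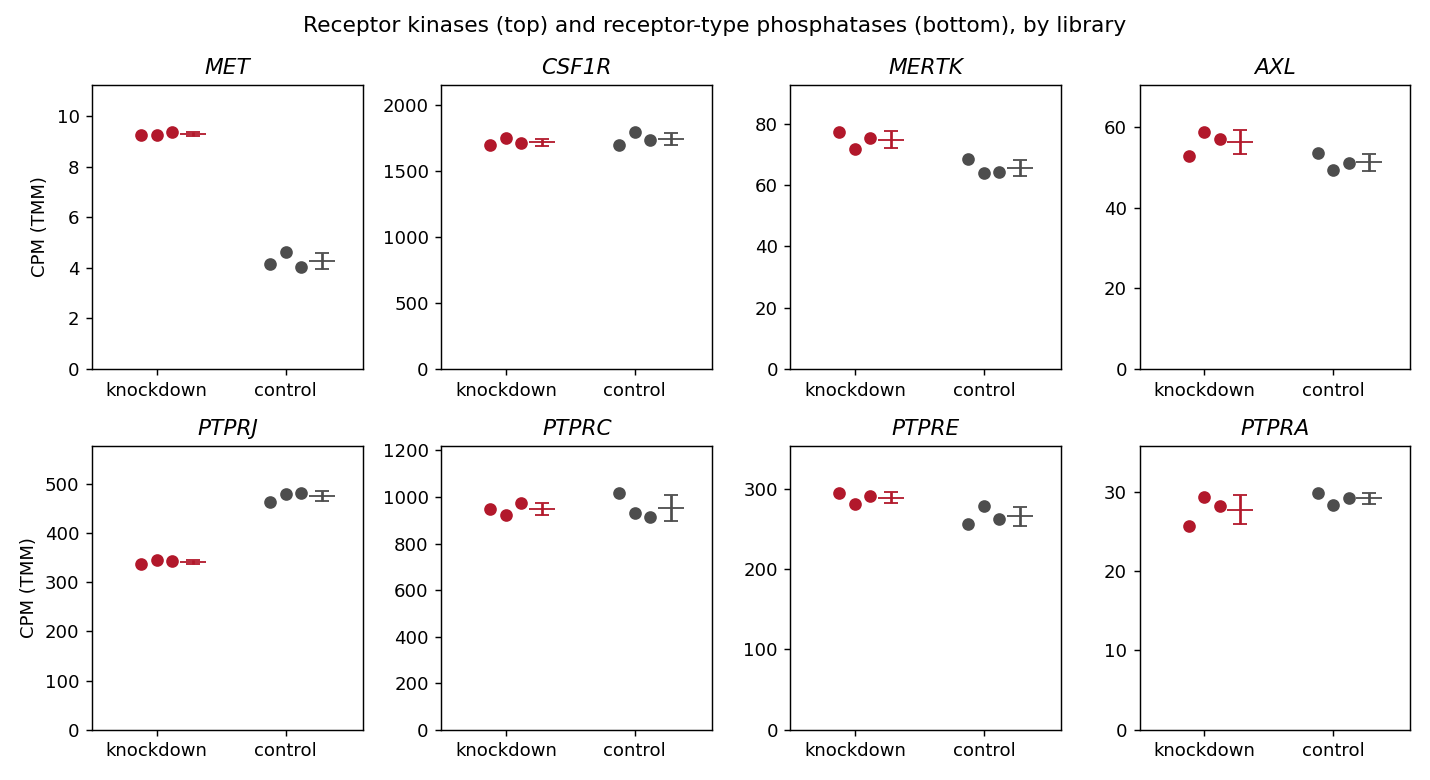
CPM of each of the 8 genes in 3 knockdown (left) and 3 control (right) libraries, 1 point per library, with the mean and SD beside each group and axes starting at 0. MET sits at 9.23 to 9.36 CPM in knockdown and 4.04 to 4.61 CPM in control libraries, and PTPRJ at 337 to 345 CPM in knockdown and 463 to 482 CPM in control libraries.

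CSF1R, the receptor most tied to macrophage survival, had 1697, 1750 and 1709 CPM in knockdown and 1700, 1794 and 1738 CPM in control libraries. The groups overlapped, with a log2 fold change of -0.02 ± 0.04 (SE) and a 95% interval from -0.10 to 0.06. MERTK had 77.2, 71.8 and 75.3 CPM in knockdown, against 68.6, 63.7 and 64.4 CPM in control libraries. Every knockdown library of MERTK lay above every control, by a log2 fold change of 0.19 ± 0.06 (SE; 95% interval 0.08 to 0.30, not adjusted for the number of genes). AXL had 52.9, 58.6 and 56.9 CPM in knockdown and 53.5, 49.2 and 50.9 CPM in control libraries. AXL overlapped between groups because knockdown replicate 1 lay below control replicate 1, with a log2 fold change of 0.13 ± 0.06 (SE; interval 0.01 to 0.26). MERTK, AXL and CSF1R did not pass the threshold of the test over all genes.

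Among the phosphatases, PTPRJ had 4160, 4921 and 4184 counts in knockdown libraries and 4904, 5738 and 5010 in controls. Scaled, this was 337, 345 and 344 CPM in knockdown, against 463, 481 and 482 CPM in control libraries, and every knockdown library lay below every control. The log2 fold change was -0.48 ± 0.04 (SE), a level 28.1% lower in knockdown (-28.1%), and 4.74% of genes tested had a larger absolute change. PTPRC, the common leukocyte phosphatase CD45, had 947, 924 and 973 CPM in knockdown and 1017, 932 and 913 CPM in control libraries. The groups of PTPRC overlapped, with a log2 fold change of -0.01 ± 0.05 (SE; 95% interval -0.10 to 0.09). PTPRE had 295, 281 and 291 CPM in knockdown and 256, 279 and 263 CPM in control libraries. Knockdown libraries of PTPRE lay above the controls by a narrow margin, knockdown replicate 2 next to control replicate 2, with a log2 fold change of 0.12 ± 0.05 (SE; interval 0.03 to 0.21). PTPRA, which in other cells removes the inhibitory phosphate of SRC, had 25.8, 29.4 and 28.2 CPM in knockdown and 29.9, 28.4 and 29.3 CPM in control libraries. PTPRA overlapped between groups, at a log2 fold change of -0.07 ± 0.08 (SE; interval -0.22 to 0.08). PTPRC, PTPRE and PTPRA did not pass the threshold.

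By the rule applied to all genes, an adjusted p under 0.05, the called members were MET (higher) and PTPRJ (lower), 2 of 8, as their choice had fixed, and 2.83% of 13405 genes were called in either direction. MET, MERTK, PTPRE and PTPRJ, 4 of the 8, had groups that did not overlap, against 20% of all genes tested. Since the genes were chosen with this contrast known, nothing is read from these shares. The median log2 fold change of the 8 was 0.06, and that of all genes tested was -0.0019.

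**Figure D2:**
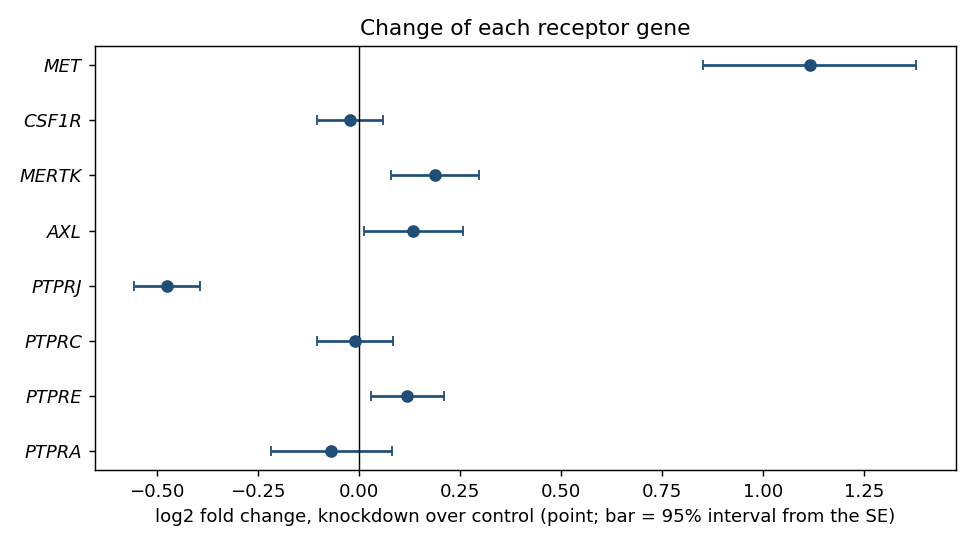
Log2 fold change of knockdown over control for each gene (x axis), with its 95% interval from the SE, not adjusted for the number of genes. MET lies at 1.12 and PTPRJ at -0.48, and the other 6 lie between -0.07 and 0.19.

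Ratios of counts within a library do not depend on how libraries are scaled. For each 100 counts of PTPRC there were 35.6, 37.4 and 35.3 counts of PTPRJ in knockdown libraries, against 45.6, 51.6 and 52.8 in controls. The corresponding counts of PTPRE were 31.1, 30.4 and 29.9 in knockdown and 25.2, 30.0 and 28.8 in control libraries, and those of PTPRA 2.72, 3.18 and 2.89 in knockdown and 2.94, 3.05 and 3.21 in control libraries. Only the ratio for PTPRJ kept the groups apart among these 3. Set against each other, PTPRE had 87.6, 81.5 and 84.7 counts for each 100 of PTPRJ in knockdown and 55.3, 58.1 and 54.4 in control libraries. For each 100 counts of CSF1R, MET had 0.544, 0.529 and 0.548 counts in knockdown and 0.244, 0.257 and 0.233 in control libraries. MERTK had 4.55, 4.10 and 4.41 counts for each 100 of CSF1R in knockdown and 4.04, 3.55 and 3.71 in control libraries, so those groups also lay apart. AXL, at 3.12, 3.35 and 3.33 in knockdown and 3.15, 2.74 and 2.93 in control libraries, overlapped. MERTK and AXL had mean ratios to each other of 133.5 ± 11.8 MERTK counts for each 100 of AXL in knockdown and 128 ± 1.49 in control libraries (SD, n = 3 each).

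**Figure D3:**
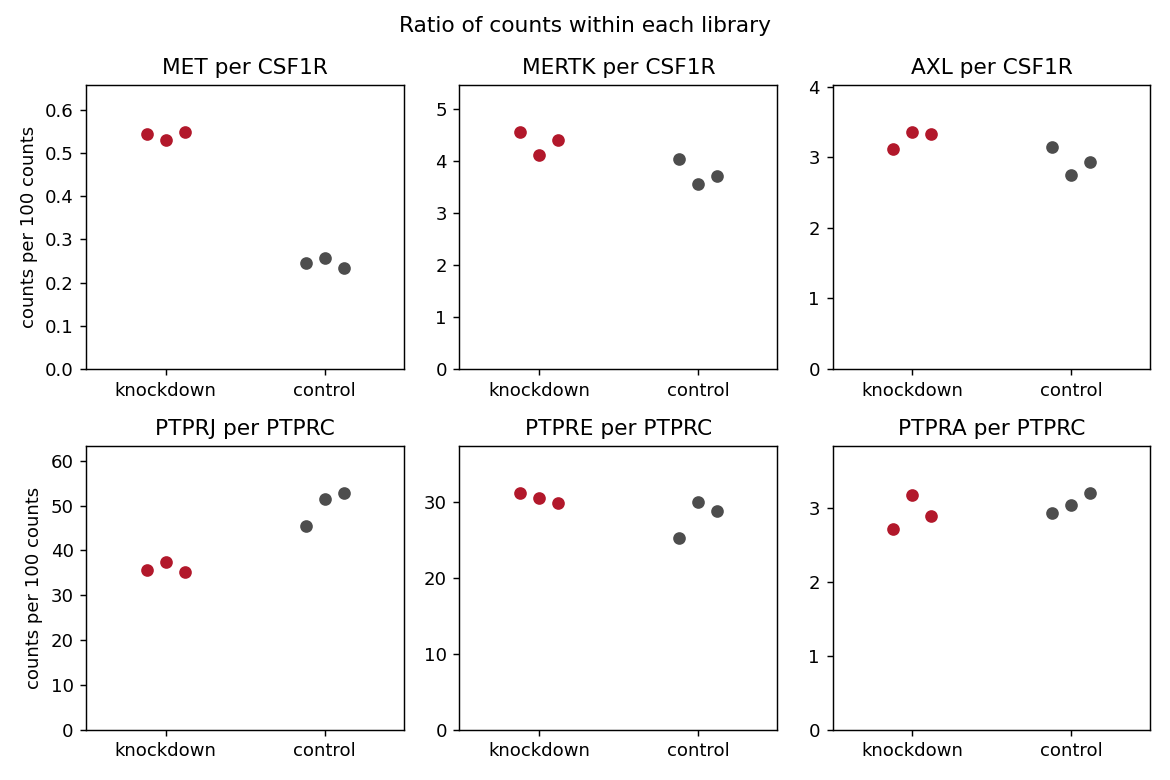
Counts of each gene for each 100 counts of CSF1R (top) or PTPRC (bottom) in 3 knockdown (left) and 3 control (right) libraries, 1 point per library, axes from 0. Groups lie apart for MET, MERTK and PTPRJ and overlap for AXL, PTPRE and PTPRA.

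To compare levels between genes, CPM was divided by the length in kilobases (kb) of the longest protein-coding transcript. CSF1R was the highest, with 431 ± 6.88 CPM per kb in knockdown and 437 ± 11.9 in control libraries (SD, n = 3 each, as for the levels that follow). PTPRC had 176 ± 4.62 CPM per kb in knockdown and 177 ± 10.3 in control libraries. PTPRE and PTPRJ came next and exchanged places: PTPRE had 54.2 ± 1.33 CPM per kb in knockdown and 49.9 ± 2.24 in control libraries, and PTPRJ 43.6 ± 0.557 in knockdown and 60.6 ± 1.33 in control libraries. PTPRE and PTPRJ did not overlap within either group, but their order depended on the length used. With the merged length of all annotated exons PTPRJ was above PTPRE in both groups (35.5 and 25.7 CPM per kb in knockdown, 49.4 and 23.7 in control libraries). With coding length PTPRE was above PTPRJ in both (137.7 and 84.9 CPM per kb in knockdown, 126.7 and 118.1 in control libraries). MERTK, at 18.9 ± 0.697 CPM per kb in knockdown and 16.6 ± 0.667 in control libraries, lay above AXL, at 11.9 ± 0.623 in knockdown and 10.8 ± 0.450 in control libraries. PTPRA followed at 7.46 ± 0.497 CPM per kb in knockdown and 7.83 ± 0.197 in control libraries. MET was the lowest, at 1.399 ± 0.0102 CPM per kb in knockdown and 0.643 ± 0.0450 in control libraries. No other pair of neighbours overlapped over the 6 libraries, and apart from PTPRE and PTPRJ the order was the same with merged exon length and with coding length.

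**Figure D4:**
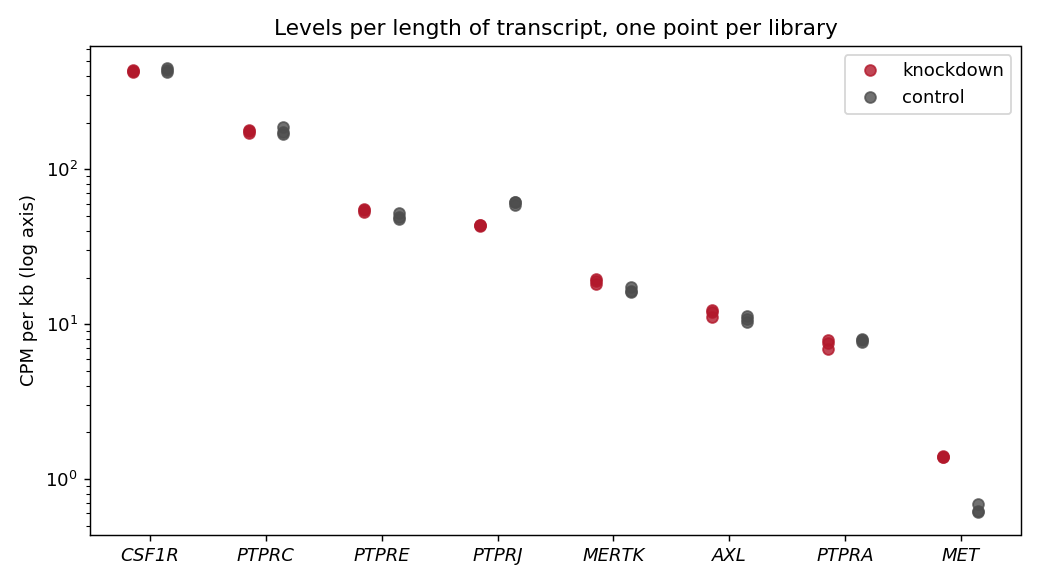
CPM per kb of the longest protein-coding transcript on a log axis, genes from highest to lowest mean, with 3 knockdown (left of each pair) and 3 control libraries as points. The order runs from CSF1R at 426 to 450 CPM per kb to MET at 0.609 to 1.41 CPM per kb, with PTPRE above PTPRJ in knockdown and below it in control libraries. The order of PTPRE and PTPRJ depended on the length used.

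Within each family, CSF1R made up 93.0% ± 0.141 of the summed per-kb level of the 4 kinases in knockdown and 94.0% ± 0.365 in control libraries (SD, n = 3 each). MET made up 0.302% ± 0.00503 in knockdown and 0.138% ± 0.00704 in control libraries, so it remained the smallest part of the kinase pool in all 6 libraries. Of the 4 phosphatases, PTPRC made up 62.6% ± 0.470 in knockdown and 59.9% ± 1.91 in control libraries. PTPRJ made up 15.5% ± 0.379 in knockdown and 20.5% ± 0.984 in control libraries, and PTPRE 19.3% ± 0.357 in knockdown and 16.9% ± 1.01 in control libraries. All these shares use the length of the longest protein-coding transcript, and the order of PTPRJ and PTPRE depended on the length used. The SDs do not cover that choice.

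The genes whose levels followed MET most closely over the 6 libraries, by Pearson r of log2 CPM among the 11908 genes whose log2 CPM averaged 1 or more, were WDR1 (0.996), PDSS1 (0.995), ZCCHC3 (0.995), ARID3A (0.994) and MFSD2A (0.993). Their log2 fold changes ran from 0.19 for ARID3A to 0.43 for ZCCHC3, below that of MET. Those most like PTPRJ were IL10RA (0.997), MTHFD2 (0.996), TUBA1C (0.996), ERGIC1 (0.994) and MAPKAPK3 (0.994), with log2 fold changes from -0.87 for MTHFD2 to -0.18 for ERGIC1. Both groups enter each r, so genes whose groups lie apart score high. These values describe likeness over 6 libraries and carry no test.

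The receptors' relatives, ligands and signalling partners were then read from the same fit, and every count of genes that rose or fell below stands against 2.83% of all genes called in either direction. None of the 19 other receptor tyrosine kinases tested passed, of 33 in the table and 54 listed (edgeR quasi-likelihood adjusted p under 0.05 over all genes). At an unadjusted edgeR p under 0.05 there were 6 of these 19. The share of all genes at that unadjusted threshold is not given here, so nothing is read from such counts in this or later lists. Neither DESeq2 nor limma-voom called any of the 19 (0 each). Their median log2 fold change was 0.06, and their groups lay apart in 4 of the 19, 2 higher and 2 lower, against 20% of all genes tested. The growth factor receptor FGFR1 had the highest CPM of them (32.2 ± 1.90 in knockdown, 29.7 ± 2.47 in control libraries; log2 fold change 0.12), with the ephrin receptor EPHB3 next (25.7 ± 1.99 and 26.9 ± 3.51 CPM; log2 fold change -0.07; SD, n = 3 each). TYRO3, the third receptor of the MERTK and AXL family, and MST1R, the nearest relative of MET, were named after their values were seen. TYRO3 had 2.27, 1.54 and 2.14 CPM in knockdown and 1.23, 1.68 and 1.25 CPM in control libraries, and MST1R had 5, 2 and 2 counts in knockdown and 0, 0 and 4 in control libraries, too few to be tested.

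None of the 8 other receptor-type phosphatases tested passed either, of 9 in the table and 16 listed, with a median log2 fold change of 0.15 and 3 of 8 lying apart, all higher, against 20% of all genes tested. The edgeR fit had 1 of the 8 at an unadjusted p under 0.05, DESeq2 called 1 and limma-voom 0. PTPRF, which cells use at contacts with neighbours, had 192, 186 and 203 CPM in knockdown and 151, 179 and 173 CPM in control libraries. Every knockdown library of PTPRF lay above every control, with a log2 fold change of 0.21 ± 0.06 (SE; edgeR adjusted p = 0.0768), and it passed in DESeq2 (adjusted p = 0.0414) and with the replicate number as a block (edgeR adjusted p = 0.0422), while the fits that left out a library gave edgeR adjusted p from 0.0556 to 0.31. PTPRG had 58.8 ± 2.30 CPM in knockdown and 60.0 ± 4.51 CPM in control libraries (SD, n = 3 each; log2 fold change -0.03).

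Of 10 tested ligands and genes of HGF activation, 1 rose and 1 fell, with a median log2 fold change of 0.04. SPINT1, which encodes an inhibitor of the proteases that activate HGF, had 54.1, 59.3 and 55.4 CPM in knockdown and 41.9, 46.6 and 46.4 CPM in control libraries. It rose by 0.32 ± 0.06 on the log2 scale (SE; edgeR adjusted p = 0.0114), and its adjusted p was 0.102 without knockdown replicate 2 and 0.0503 without knockdown replicate 3. THBS1, the matrix protein thrombospondin-1, reported to be a ligand of PTPRJ, had 30.9, 27.9 and 31.7 CPM in knockdown and 48.0, 49.0 and 40.5 CPM in control libraries. It fell by 0.61 ± 0.08 on the log2 scale (edgeR adjusted p = 0.000589) and passed in all 6 fits that left out a library. HGF itself had 6, 1 and 1 counts in knockdown and 1, 3 and 3 in control libraries, near the floor of 3 counts, and was not tested. ST14, a protease that activates HGF, had 484 ± 25.9 CPM in knockdown and 473 ± 7.87 CPM in control libraries (log2 fold change 0.03), and SDC2, a proteoglycan also described as a PTPRJ ligand, 1248 ± 11.8 and 1150 ± 77.4 CPM (log2 fold change 0.12). SDC2 did not pass (edgeR adjusted p = 0.255), but had an adjusted p of 0.00721 without control replicate 1. The ligands of CSF1R, MERTK and AXL in the table had log2 fold changes of 0.02 for CSF1, 0.10 for GAS6 and -0.01 for PROS1, none past the threshold.

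None of the 9 co-receptors and sheddases tested passed in edgeR, DESeq2 or limma-voom, and 0 had an unadjusted edgeR p under 0.05 (median log2 fold change 0.04, none lying apart). TYROBP, the signalling adaptor DAP12, had 848 ± 31.1 CPM in knockdown and 851 ± 85.1 CPM in control libraries, and CD44, a co-receptor of MET, 485 ± 18.0 and 472 ± 16.8 CPM (SD, n = 3 each). ADAM10 and ADAM17, proteases that cut receptors such as MET and AXL from the surface, had log2 fold changes of -0.0026 and 0.015.

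Of 21 receptor adaptors and ubiquitin ligases 1 rose and none fell, with a median log2 fold change of 0.05. CRK, an adaptor that links receptors to cytoskeletal signalling, had 70.1, 64.9 and 65.5 CPM in knockdown and 54.2, 54.6 and 54.8 CPM in control libraries. It rose by 0.29 ± 0.06 on the log2 scale (SE; edgeR adjusted p = 0.00911), with an adjusted p of 0.0724 without knockdown replicate 1 and 0.0563 without control replicate 2. GRB2, the adaptor that couples receptors to RAS, had 669.5 ± 2.69 CPM in knockdown and 687 ± 19.9 CPM in control libraries (log2 fold change -0.04). CBL, the ubiquitin ligase that sends MET and CSF1R for degradation, had 231 ± 5.78 and 214 ± 21.3 CPM (log2 fold change 0.11), and neither passed.

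Of 9 genes of the Src family and its regulators 1 rose and none fell, with a median log2 fold change of 0.06. YES1, a broadly expressed Src family kinase, had 12.8, 15.6 and 13.6 CPM in knockdown and 9.92, 10.97 and 8.28 CPM in control libraries. It rose by 0.52 ± 0.12 on the log2 scale (SE; edgeR adjusted p = 0.0313), but had an adjusted p of 0.0572 in DESeq2, and of 0.193, 0.0907 and 0.0769 without knockdown replicates 2 and 3 and control replicate 3. LYN had 498 ± 5.43 CPM in knockdown and 468 ± 11.3 CPM in control libraries (SD, n = 3 each). LYN, a kinase of myeloid cells and a substrate of PTPRC, lay higher in every knockdown library than in any control, at a log2 fold change of 0.09, and did not pass.

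Of 15 non-receptor tyrosine phosphatases 1 rose and none fell, with a median log2 fold change of -0.01. PTPN1, the phosphatase PTP1B of the endoplasmic reticulum, had 157, 154 and 162 CPM in knockdown and 129, 139 and 137 CPM in control libraries. It rose by 0.22 ± 0.05 on the log2 scale (SE; edgeR adjusted p = 0.0197), and its adjusted p ran from 0.0566 to 0.125 without knockdown replicates 1, 2 or 3 or control replicate 2. PTPN12 had 391 ± 9.89 CPM in knockdown and 393 ± 22.4 CPM in control libraries, and PTPN6, the SHP-1 phosphatase of blood cells, 222 ± 3.92 and 235 ± 15.8 CPM, with log2 fold changes of -0.01 and -0.08.

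Of 16 feedback genes of ERK signalling, the pathway that MET and CSF1R feed, 1 fell and none rose, with a median log2 fold change of 0.04. DUSP1, a phosphatase of MAP kinases, had 30.3, 31.1 and 28.7 CPM in knockdown and 38.1, 40.0 and 34.7 CPM in control libraries. It fell by 0.32 ± 0.07 on the log2 scale (SE; edgeR adjusted p = 0.0266), and its adjusted p ran from 0.0857 to 0.166 without knockdown replicates 1, 2 or 3 or control replicate 2. DUSP6, the ERK phosphatase, had 257 ± 4.02 CPM in knockdown and 243 ± 14.1 CPM in control libraries (log2 fold change 0.08), and PHLDA1 272 ± 11.9 and 283 ± 8.30 CPM (log2 fold change -0.06).

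**Figure D5:**
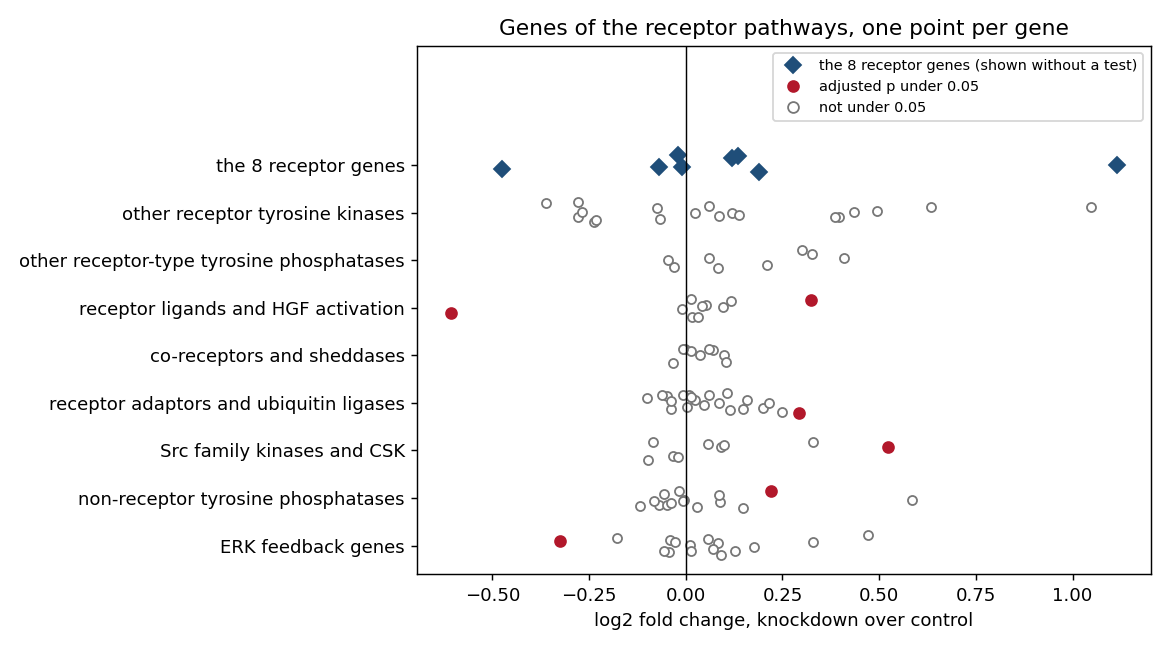
Log2 fold change of knockdown over control for the 8 receptor genes (diamonds, shown without a test) and for every tested gene of 8 pathway lists (circles), filled where the edgeR adjusted p was under 0.05. The 6 filled genes are THBS1, DUSP1, PTPN1, CRK, SPINT1 and YES1, from -0.61 to 0.52, and MET lies to the right of all of them at 1.12.

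Over the 8 pathway lists together, 4 genes rose and 2 fell of 107 tested, against 379 of 13405 genes (2.83%) called over the whole table. The pathway and marker lists were chosen with earlier results of these data known, so nothing is read from their shares. Without knockdown replicate 2 or 3 only 1 rose and 1 fell, and without control replicate 2 these counts were 2 and 1. Macrophage markers tested in the same fit included CD14 (log2 fold change 0.34, edgeR adjusted p = 0.003) and CD163 (0.40, adjusted p = 0.0127), which rose, and LYZ (-0.40, adjusted p = 0.000928), which fell, 3 of 10 against 2.83% of all genes. CD163 had adjusted p of 0.0535, 0.119 and 0.0796 without knockdown replicates 1 and 2 and control replicate 2. The markers with the highest CPM, CD68 (1049 ± 41.0 in knockdown, 1131 ± 85.1 in control libraries; SD, n = 3 each) and SPI1 (604 ± 14.02 and 620 ± 38.2), did not pass. Of the epithelial markers, CLDN7 had 22, 27 and 13 counts in knockdown and 14, 11 and 8 in control libraries, and KRT8 13, 10 and 12 in knockdown and 10, 7 and 5 in control libraries. Both overlapped between groups and did not pass (edgeR adjusted p = 0.391 for CLDN7 and 0.685 for KRT8), and the part of these markers in the difference of MET was not tested. Of the other markers with the highest CPM, COL1A1 (2.04 in knockdown, 1.76 in control libraries), NKG7 (4.03 and 4.04), AZU1 (51.95 and 58.9) and PRTN3 (10.9 and 11.2) did not pass.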

How the data were processed

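The authors' deposited values are expected counts, 1 row per gene symbol and whole in 100% of entries, for 17042 genes in 6 libraries, with a lowest row sum of 10. Salmon 0.11.2, DESeq2 and hg38 are named, without their roles, per the submitters' processing notes; rounding, strand and annotation are not given in the sources used here. Salmon's counts are estimates that split reads between genes sharing sequence.

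Libraries were grouped by title. edgeR 4.0.16 (R 4.3.3) quasi-likelihood was run with TMM factors, filterByExpr and no covariate beside group; tests were two-sided, with Benjamini-Hochberg adjustment over 13405 genes and a threshold of 0.05. SE is the size of the log2 fold change over the square root of F, and 95% intervals use it with a normal quantile. These intervals are narrower than the edgeR test implies. For CD68 the interval, -0.2144 to -0.0039, left out 0 though its unadjusted edgeR p was 0.0597. The fit was also run on counts simulated from its own mean levels and dispersions, and the outcome is not given here. Such a run cannot show how well the model suits these libraries. The 8 genes and 13 lists (8 pathway, 5 marker) were chosen with earlier results of these data known. All 8 genes are named, and from each list every gene past the threshold and the 2 with the highest CPM, except some that are not reported here; HGF, CSF1, GAS6, PROS1, ADAM10, ADAM17, TYRO3 and MST1R were added for their roles after their values were seen. Lists are described by counts and medians, with no set test. Lengths came from GENCODE 29, start sequences from RefSeq. Chi-square per degree of freedom between libraries of a group ran from 1.905 to 2.28 in knockdown and from 2.794 to 6.79 in control libraries. None were therefore duplicates, and the control libraries differed more among themselves. Alternatives were DESeq2 1.42.0, RLE and upper-quartile factors, 2 filters, limma-voom (limma 3.58.1), the replicate block and leaving out each library.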

Additional observations from a re-analysis of the deposited data

How the results depend on the processing

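MET and PTPRJ, which were chosen on this contrast, had the same sign in all 13 alternatives, given as a description. DESeq2 gave MET a log2 fold change of 1.12 and no adjusted p. With 1 library left out, MET ran from 1.08 to 1.18 and PTPRJ from -0.49 to -0.46, and MERTK (0.16 to 0.22) passed without control replicate 1. With 1 library left out, some values changed sign. CSF1R ran from -0.0394 to 0.002, PTPRC from -0.0366 to 0.0396, EPHB3 from -0.161 to 0.0213 and PTPRG from -0.0825 to 0.0303. ST14 ran from -0.0094 to 0.0679, TYROBP from -0.0799 to 0.0575, PTPN12 from -0.0331 to 0.0422 and PRTN3 from -0.176 to 0.0849. NKG7 ran from -0.10 to 0.17 (0.0024 with RLE and 0.0038 with upper-quartile factors). COL1A1, at 0.22 with all libraries and on 13 to 29 counts per library, ran from -0.0397 to 0.382. The count of genes past the threshold, 379, was 139 to 542 with 1 library left out, and that of pathway genes 1 to 5 higher and 1 to 2 lower. With the replicate block 488 genes passed, and 5 pathway genes rose. No label says whether libraries with the same replicate number belong together. Deviations of same-numbered libraries from their group means correlated at 0.07, 0.09 and 0.05, each library best with its own number. All other pairs of a knockdown and a control library correlated at -0.0568 to -0.0088. Whether the libraries were paired is not settled by these values. Among the 8 genes depth limits MET most, with 42 to 55 counts per control library and an SE of 0.13.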
